A study of Mus musculus with 4 samples.

Results

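The mature microRNAs (miRNAs) made from the mouse mir-223 and mir-142 hairpins were followed through 4 stages of dendritic cell (DC) development. They were chosen by name in the deposited miRNA table: miR-223-3p, miR-223-5p, miR-142-3p and miR-142-5p, which are 4 of its 1078 mature miRNAs. All cells came from C57BL/6J mice, and 1 Solexa small RNA library was made per cell type. The HSC library is from bone marrow cells sorted as c-Kit+, Sca1+ and Lineage-. Immature DC (imDC) were grown from bone marrow for 6 days with IL-4 at 1 ng/mL and GM-CSF at 10 ng/mL. Mature DC (maDC) had the same cytokines, were given LPS at 10 ng/mL from day 4, and at day 8 were selected by CD11c, a surface marker of DC. Regulatory DC (DCreg) were maDC that spent 7 days or more on endothelial-like splenic stromal cells and were then selected again by CD11c. The labels give no CD11c selection for imDC. Each library is a single sample, so no difference below has a replicate check and no p-value is given. In such bulk samples, fewer cells of a type and less RNA per cell cannot be told apart.

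miR-223 is a miRNA of the myeloid lineage, best known from granulocytes and monocytes, where it restrains inflammatory signalling. miR-142 is made in nearly all blood cells and little elsewhere, and mice that lack it have defects of several blood lineages, DC among them. Each miRNA gene makes a hairpin RNA from which Dicer frees a duplex of a 5p and a 3p strand, and an Argonaute protein keeps mainly 1 strand of it. The kept strand finds its targets through its seed, bases 2 to 8 from the 5′ end, so a start moved by a single base gives another seed.

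Both hairpins lie in noncoding host genes. Mir223 is on the plus strand of chromosome X at 96242817 to 96242926 (GRCm38), inside the last exon of both annotated transcripts of F630028O10Rik, a noncoding gene of the GENCODE class antisense. Mir142 is on the plus strand of chromosome 11 at 87756864 to 87756927, in the intron between exons 1 and 2 of the long noncoding RNA Mir142hg. The hairpins are shown from RefSeq (GRCm38.p6), with the annotated arms in capitals, because reads began and ended outside those bounds.
Mir223: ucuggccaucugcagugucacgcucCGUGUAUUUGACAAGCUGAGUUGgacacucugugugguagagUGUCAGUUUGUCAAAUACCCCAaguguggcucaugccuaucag
Mir142: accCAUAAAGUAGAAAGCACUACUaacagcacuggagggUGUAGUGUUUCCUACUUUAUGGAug

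The annotated mature sequences, all 4 matched in RefSeq (which names the mir-142 arms miR-142a), are given next with the seed in capitals. After them come the commonest deposited reads of each shifted start, because the starts set the seeds. Starts are counted from the annotated 5′ base, minus being upstream.
miR-223-3p: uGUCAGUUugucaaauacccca
miR-223-3p start +1: gUCAGUUUgucaaauaccccaa
miR-223-5p: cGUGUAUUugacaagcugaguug
miR-142-3p: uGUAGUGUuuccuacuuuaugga
miR-142-3p start +1: gUAGUGUUuccuacuuuaugg
miR-142-5p: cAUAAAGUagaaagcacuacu
miR-142-5p start -3: aCCCAUAAaguagaaagcacua
miR-142-5p start -2: cCCAUAAAguagaaagcacua
miR-142-5p start +1: aUAAAGUAgaaagcacuacuaa
The 4 annotated seeds differ from each other, and none of them is held by another mouse miRNA of the RefSeq table. Of the shifted seeds, that of the -2 start of miR-142-5p is also the annotated seed of miR-142b, a miRNA annotated on the opposite strand of the same locus. No read from that opposite strand was found in any library, which at a limit of 3 reads allows up to between 0.456 (maDC) and 0.612 (DCreg) reads per 1000000 in the lists.

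The deposited values summed to between 2725948 (DCreg) and 5251069 (imDC), and the deposited read lists held between 4904897 (DCreg) and 6572858 (maDC) reads, of which 78.6% to 82.6% were placed on RefSeq miRNAs. Levels are given in parts per 1000000 (ppm) of the deposited total. Recounted levels, in ppm of placed reads, and their exact (Clopper-Pearson) 95% intervals stand beside them where they add something. The reads carry no molecular identifiers and copies from PCR are not separate molecules, so these intervals cover counting error only. Read numbers of different miRNAs also carry the preferences of adaptor ligation, so ratios between arms are ratios of reads. The deposited value per recounted read was 1.17 to 2.00 for the 4 miRNAs. The median over all miRNAs with 1000 reads or more lay between 1.2 (DCreg) and 1.38 (HSC), so miR-223-5p, at 1.55 to 2.00, stood higher against other miRNAs in the deposited table than in the recount.

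miR-142-5p was by far the most abundant of the 4 in every library. Its deposited level was 18959 ppm in the HSC library, 9513 in imDC, 13196 in maDC and 9377 in DCreg, which made it the 15th, 21st, 18th and 16th most abundant miRNA of those libraries. The library with most of it held 2.02-fold as much as the library with least. Its partner miR-142-3p stood at 1133 ppm in the HSC library, 861 in imDC, 366 in maDC and 94.6 in DCreg, lower in each library of that order than in the one before. miR-223-3p, the main strand of the myeloid hairpin, stood at 3438 ppm in the HSC library, 2264 in imDC, 635 in maDC and 669 in DCreg. The HSC and imDC libraries were thus both high and the maDC and DCreg libraries both low. Its partner miR-223-5p stood at 702 ppm in the HSC library, 791 in imDC, 329 in maDC and 58.0 in DCreg. Its maDC level rests in part on reads of 29 nt or more. Without them the recounted levels were 319, 500, 85.5 and 20.1 ppm, so that both maDC and DCreg were far below HSC and imDC. The recount placed 79 miR-223-5p reads and 195 miR-142-3p reads in DCreg, at 20.4 ppm (95% interval 16.2 to 25.4) and 50.4 ppm (43.5 to 57.9).

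**Figure D1:**
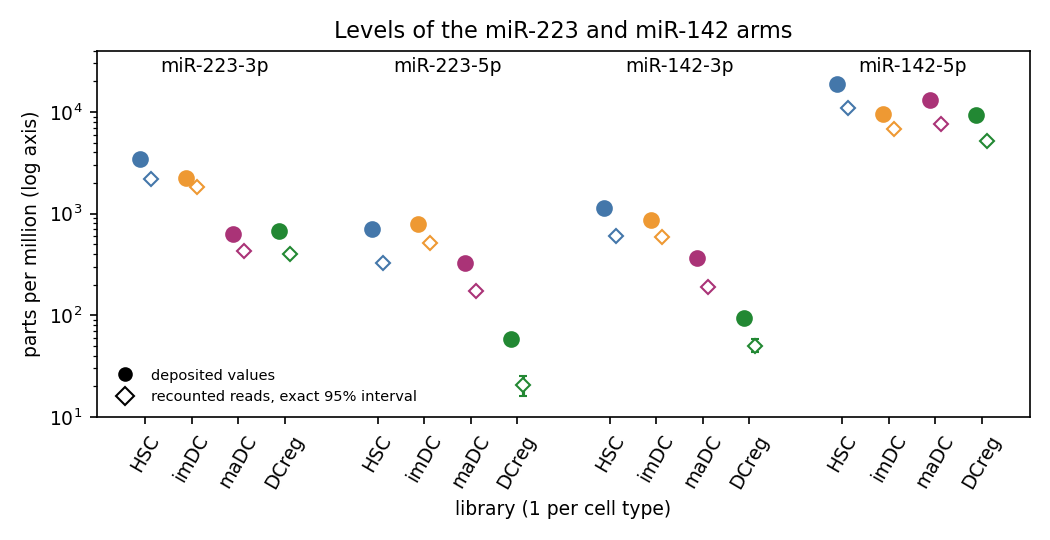
Level of each miRNA in the 4 libraries on a log axis in parts per 1000000 (ppm). Filled circles are deposited values, and open diamonds are recounted reads with exact 95% intervals, most of them narrower than the symbol. miR-142-5p stayed between 9377 and 18959 ppm (deposited) while miR-142-3p ranged from 94.6 to 1133.

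The 6 comparisons between the 4 libraries share libraries and are given side by side. A miRNA was called different at a ratio of 2-fold or more (pseudocount 0.5 on the deposited value) where it reached 100 ppm in at least 1 of both libraries. In imDC against HSC none of the 4 was called, where 54.5% of 187 tested miRNAs were (26.2% higher, 28.3% lower). miR-142-5p came nearest, 1.99-fold lower in imDC (recount 1.62-fold, interval 1.60 to 1.64), and was called lower with median-of-ratios scaling (log2 -1.08). miR-223-3p was 1.52-fold lower and miR-142-3p 1.32-fold lower, and miR-223-5p was 1.13-fold higher. In the recount miR-142-3p was at 0.979 of its HSC level with an interval of 0.930 to 1.03, so no difference was detectable there.

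By the labels, maDC differ from imDC in LPS, in the day of harvest (8 against 6) and in the CD11c selection given. The parts of these cannot be told apart. In maDC against imDC 3 of the 4 were called lower, where 45% of 160 tested miRNAs were lower, 9.38% higher and 54.4% called in either direction. miR-223-3p was 3.57-fold lower (recount 4.27-fold, 4.08 to 4.47), miR-223-5p 2.41-fold lower and miR-142-3p 2.35-fold lower (recount 3.13-fold, 2.91 to 3.36). miR-142-5p was 1.39-fold higher and was not called. With recounted reads of the annotated start only, its direction turned (log2 -0.34). The scaling bears on this step. The median of all tested miRNAs was -0.88 in log2, and trimmed-mean scaling moved it up by 0.55 and median-of-ratios scaling by 0.70. Under those scalings miR-223-5p (log2 -0.72 and -0.56) and miR-142-3p (-0.68 and -0.53) were no longer called, miR-142-5p (1.02 and 1.18) was called higher, and miR-223-3p (-1.28 and -1.13) was still called lower.

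By the labels, DCreg differ from maDC in the stromal cells, in the 7 days or more spent on them and in the second CD11c selection. Against imDC, LPS is a further difference. The shares of these in any DCreg difference cannot be told apart. In DCreg against maDC, 2 of the 4 were called lower, where 28.3% of 138 tested miRNAs were lower and 48.6% were called. These were the minor strands of both hairpins: miR-223-5p was 5.67-fold lower (recount 8.56-fold, 6.80 to 10.9) and miR-142-3p 3.86-fold lower (recount 3.73-fold, 3.20 to 4.37). Their major partners were close together in these libraries. miR-223-3p was 1.06-fold higher in DCreg by deposited values and 1.07-fold lower in the recount (1.00 to 1.14), and miR-142-5p was 1.41-fold lower. Against imDC, DCreg held 3 of the 4 at lower levels, where 56% of 168 tested miRNAs were lower and 72% were called. miR-223-5p was 13.7-fold lower, miR-142-3p 9.09-fold and miR-223-3p 3.38-fold, while miR-142-5p was 1.01-fold lower. In the recount miR-223-5p was 25.0-fold lower (20 to 31.7). Median-of-ratios scaling brought miR-223-3p to the threshold (log2 -1.04) and miR-142-3p to -2.47. The sign of miR-142-5p in DCreg against imDC turned with the scaling of the deposited values, from -0.55 to 0.70 in log2, and in the recount it was 1.31-fold lower (1.29 to 1.33).

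Against HSC, all 4 were called lower in DCreg, where 56% of 175 tested miRNAs were lower and 75.4% were called. miR-223-5p was 12.1-fold lower, miR-142-3p 12.0-fold, miR-223-3p 5.14-fold and miR-142-5p 2.02-fold. With median-of-ratios scaling the first 3 were still called, at log2 -2.97, -2.95 and -1.73. The call of miR-142-5p was lost with trimmed-mean scaling (log2 -0.70), median-of-ratios scaling (-0.39) and a total without the 5 most abundant miRNAs (-0.53). In maDC against HSC, 3 were called lower, where 48.9% of 180 tested miRNAs were lower and 70.6% were called. miR-223-3p was 5.42-fold lower, miR-142-3p 3.10-fold and miR-223-5p 2.14-fold, and miR-142-5p was 1.44-fold lower. miR-223-5p was near the threshold there and missed it with trimmed-mean scaling (log2 -0.36), median-of-ratios scaling (-0.48), a total without the 5 most abundant miRNAs (-0.96) and the recount (-0.91). Without reads of 29 nt or more, described further on, miR-223-5p was 3.73-fold lower in maDC than in HSC (3.37 to 4.15), in place of 1.88-fold in the recount with them. Under trimmed-mean scaling miR-142-3p (-0.90) missed the threshold too, miR-223-3p (-1.71) did not, and miR-142-5p turned to 0.21.

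The balance of calls over all tested miRNAs also moved with the scaling. It was 15 higher and 72 lower in maDC against imDC, and 30 and 37 with median-of-ratios scaling. The like split was 49 and 53 in imDC against HSC (62 and 40 with trimmed-mean scaling), and 27 and 94 in DCreg against imDC (34 and 65 with median-of-ratios scaling). It was 34 and 98 in DCreg against HSC (45 and 77 with median-of-ratios scaling) and 39 and 88 in maDC against HSC (49 and 70 with trimmed-mean scaling). For DCreg against maDC it was 28 and 39, and 33 and 20 with a total without the 5 most abundant miRNAs. Over the scalings and recounts miR-223-3p ran from -0.22 to 0.43 in log2 in DCreg against maDC, so its sign there depended on the setting.

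The strands of a hairpin come from the same library, so their ratio does not depend on the scaling between libraries. mir-223 gave mainly its 3p strand and mir-142 mainly its 5p strand in all 4 libraries. Of the recounted reads of both mir-223 arms, the 5p arm held 13.1% in the HSC library (12.5% to 13.7%), 21.8% in imDC (21% to 22.5%), 28.9% in maDC (27.4% to 30.5%) and 4.83% in DCreg (3.84% to 5.99%). The 3p strand thus outnumbered the 5p strand 6.65-fold, 3.59-fold, 2.46-fold and 19.7-fold. The maDC value rests on long reads described further on, and was 16.6% without them. For mir-142 the 5p arm held 94.8% in the HSC library, 92.1% in imDC, 97.6% in maDC and 99.0% in DCreg. There the 5p strand outnumbered the 3p strand 18.4-fold (17.7 to 19.1), 11.6-fold (11.2 to 12.1), 40.3-fold (37.9 to 43.0) and 103-fold (89.6 to 119). DCreg was therefore the most lopsided library for both hairpins, and imDC the least lopsided for mir-142.

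**Figure D2:**
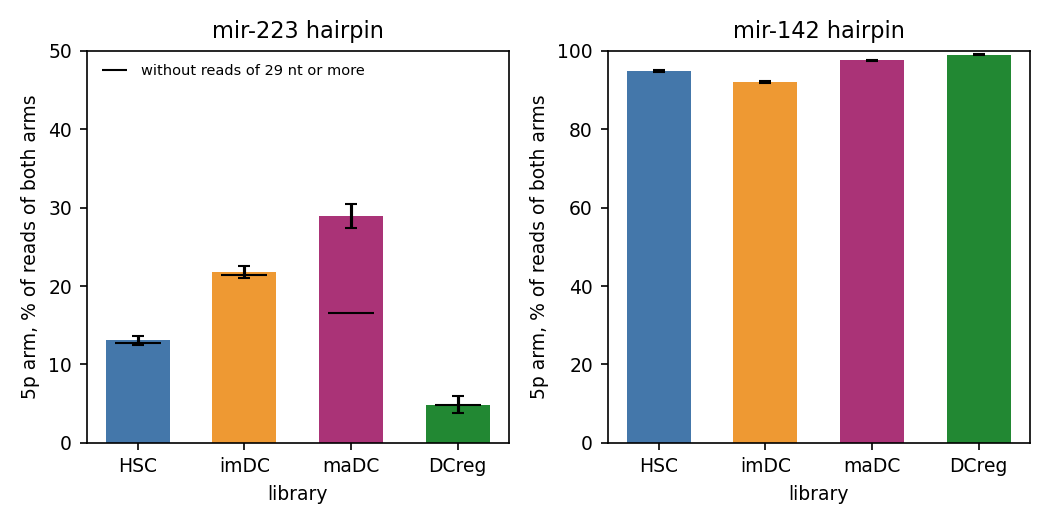
Share of the 5p arm in the recounted reads of both arms, for mir-223 (left, axis to 50%) and mir-142 (right, axis to 100%), with exact 95% intervals as error bars. Horizontal dashes on the left give the mir-223 share without reads of 29 nt or more, which in maDC was 16.6% in place of 28.9%.

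Shifts of this size between arms were common in these libraries. A shift of the 5p to 3p ratio by 2-fold or more was found in both hairpins in DCreg against maDC, where 42.3% of 97 hairpins shifted as much. The mir-223 ratio fell by 3.0 in log2 there, and 4 of the 97 hairpins shifted further. That of mir-142 was higher by 1.36, and 30 shifted further. In DCreg against imDC the mir-223 ratio shifted by -2.45 and the mir-142 ratio by 3.15, where 65.3% of 101 hairpins shifted by 2-fold or more. There 23 shifted further than mir-223 and 8 further than mir-142. Both shifted in DCreg against HSC (mir-223 by -1.57 and mir-142 by 2.49, where 53.1% of 96 hairpins did) and in maDC against HSC (mir-223 by 1.44 and mir-142 by 1.13, where 57.8% of 102 did). In DCreg against HSC 30 hairpins shifted further than mir-223 and 15 further than mir-142, and in maDC against HSC 44 and 57 did. Of maDC against imDC only the mir-142 shift, 1.80, reached that size (58.4% of hairpins did), and of imDC against HSC neither did (0.89 and -0.66, where 41.4% of hairpins did). Without reads of 29 nt or more the mir-223 shift was 0.44 in maDC against HSC, under that size, and -1.99 in DCreg against maDC. The rank among the 97 hairpins was counted with those reads.

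The 5′ ends set the mir-142 strands apart, and miR-223-3p to a lesser degree. Over all miRNAs with 1000 reads or more, the median share of reads at the annotated 5′ end was 99.1% to 99.4% per library. For miR-142-5p it was 21.1% in the HSC library, 20.4% in imDC, 14.8% in maDC and 14.4% in DCreg. The commonest start lay 2 nt upstream of the annotated base in every library and took 60.8% of reads in the HSC library, 55.4% in imDC, 68.0% in maDC and 75.2% in DCreg. The -3 start took between 5.48% (DCreg) and 9.82% (imDC), and the +1 start 10.3% in the HSC library, 14.0% in imDC, 8.27% in maDC and 4.64% in DCreg. The -1 start was nearly empty, at 0.0800% to 0.178%, so that the starts fell into separate upstream and downstream groups. Most miR-142-5p reads hence carried the seed CCAUAAA in place of the annotated AUAAAGU.

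miR-142-3p mostly began 1 nt downstream of its annotated start. That +1 start took 71.1% of reads in the HSC library, 65.2% in imDC, 86.2% in maDC and 80.2% in DCreg. The annotated start took 19.0% in the HSC library, 25.4% in imDC, 5.52% in maDC (4.22% to 7.08%) and 6.28% in DCreg (3.39% to 10.5%, on 207 reads). Its maDC and DCreg shares were thus both far below those of HSC and imDC. The share of miR-142-3p at the annotated start was the lowest of all 82 miRNAs with 1000 reads or more in HSC and of all 71 in maDC. miR-142-5p had the lowest share of all 57 in DCreg. In imDC both were among the lowest 3 of 92.

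**Figure D3:**
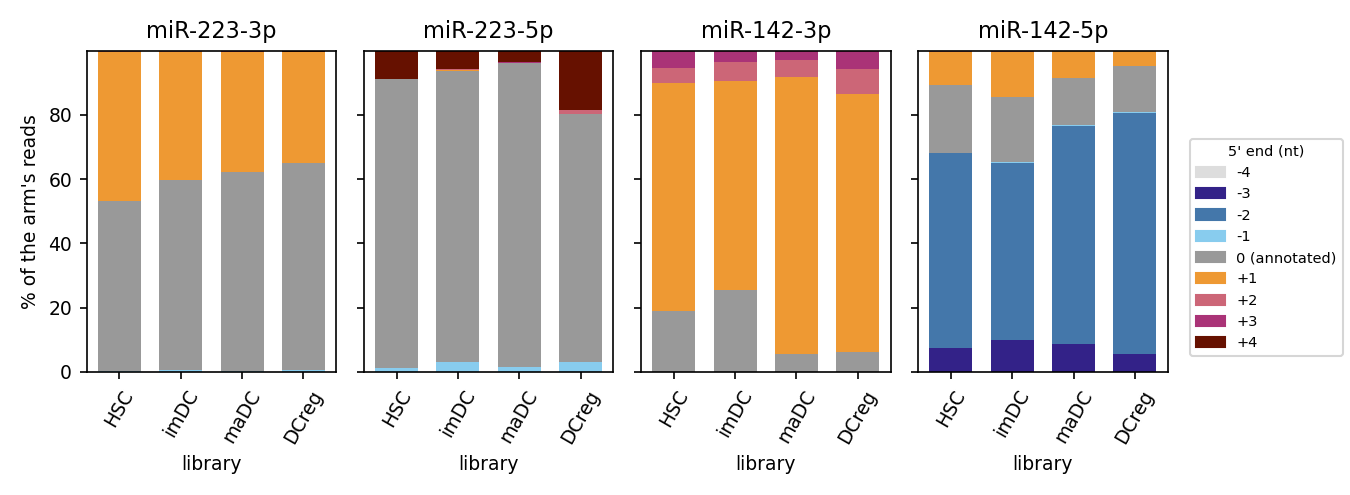
Share of each miRNA's reads by 5′ start, in nt from the annotated base (0, grey; minus is upstream), with 1 stacked bar per library. miR-142-5p is led by the -2 start (55.4% to 75.2%), miR-142-3p by the +1 start (65.2% to 86.2%), and both miR-223 strands by the annotated start.

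miR-223-3p used mainly 2 starts, which were nearest in size in the HSC library. The annotated start took 53.0% of its reads in the HSC library, 59.1% in imDC, 61.8% in maDC and 64.5% in DCreg, and the +1 start 46.6%, 40.0%, 37.5% and 34.5%. Among miRNAs with 1000 reads or more, 5 of 82 in HSC, 8 of 92 in imDC, 7 of 71 in maDC and 5 of 57 in DCreg had a lower annotated share. The HSC interval of the annotated share (52.1% to 53.9%) lay below that of imDC (58.1% to 60.1%), while the interval of maDC (59.8% to 63.7%) overlapped both that of imDC and that of DCreg (62.1% to 66.9%). With no unmatched 3′ base the shares were 53.3%, 58.3%, 56.9% and 58.5%, so maDC then stood below imDC. miR-223-5p began at the annotated base in 89.8% of reads in the HSC library, 90.9% in imDC, 94.6% in maDC and 77.3% in DCreg (67.7% to 85.2%, on 97 reads). Its other reads mostly began at +4, with 8.70%, 5.74%, 3.55% and 18.6%. A read was placed here with its start up to 4 nt away from the annotated base.

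Between libraries, shares at the annotated start were nearly constant for most miRNAs: the median move was 0.140 to 0.296 percentage points, and few miRNAs with 1000 reads in both libraries moved by 10 points or more. In maDC against imDC miR-142-3p moved by -19.9 points, where 4.35% of 69 miRNAs moved by 10 or more, and miR-142-5p by -5.62. In maDC against HSC miR-142-3p moved by -13.4 points (4.84% of 62 did so). In DCreg against HSC miR-223-3p moved by 11.5 points (7.84% of 51). It moved by under 10 points with no unmatched 3′ base (53.3% in HSC and 58.5% in DCreg) and with reads of 20 to 24 nt (54.0% and 63.9%). Of those with enough reads, none reached 10 points in imDC against HSC (2.7% of 74), DCreg against maDC (1.89% of 53) or DCreg against imDC (5.66% of 53). miR-142-3p and miR-223-5p had under 1000 reads in DCreg, and miR-223-5p also in maDC, so they were left out of those counts. On its 207 DCreg reads miR-142-3p differed from imDC by -19.1 points.

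Recounted by start, forms of the same miRNA moved apart between libraries, a difference that the scaling between libraries does not touch. The annotated form of miR-142-3p stood at 120 ppm in the HSC library, 154 in imDC, 10.7 in maDC and 3.36 in DCreg. It was 14.4-fold lower in maDC than in imDC (11.1 to 19.2), while its +1 form was 2.37-fold lower (2.20 to 2.57). The -2 form of miR-142-5p stood at 7242 ppm in the HSC library, 4189 in imDC, 5642 in maDC and 4135 in DCreg. In DCreg it was at 0.987 of its imDC level (0.967 to 1.01), whereas the -3 form was 2.46-fold lower (2.31 to 2.63), the annotated form of miR-142-5p 1.95-fold lower (1.87 to 2.04) and the +1 form 4.14-fold lower (3.87 to 4.43). Of these 4 forms, the -2 form was thus the one near equality in DCreg and imDC by ppm of placed reads. In maDC against imDC the -2 form was 1.35-fold higher, while the annotated form was 1.26-fold and the +1 form 1.54-fold lower. Only the difference between forms is free of the scaling, and the ratio and direction of a single form are not. For deposited values, trimmed-mean scaling moved the median of DCreg against imDC up by 0.65 in log2 and median-of-ratios scaling by 0.72. In maDC against imDC the like moves were 0.55 and 0.70. The forms of miR-223-3p kept closer together: in maDC against imDC the annotated form was 4.08-fold lower and the +1 form 4.56-fold lower. Against HSC, the DCreg level was 4.44-fold lower for the annotated form (4.16 to 4.76) and 7.31-fold lower for the +1 form (6.68 to 8.00).

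Reads of miR-142-5p with the -3, -2 and +1 starts were mostly 20 to 22 nt long. In HSC, of reads with the -3 start, 74.0% ended 2 nt before the annotated 3′ end, and of those with the -2 start 49.9% ended 2 nt and 30.6% ended 3 nt before it. Of the +1 start reads of miR-142-5p 77.4% in HSC and 83.6% in imDC ended 2 nt past the annotated end. The annotated start had no single leading end: 36.3% of its reads in HSC, 30.7% in maDC and 37.8% in DCreg ended 2 nt before the annotated end, while in imDC 32.9% ended 1 nt past it. DCreg differed in the -2 form: 45.1% of its reads ended 3 nt before the annotated end, against 30.6% in HSC, 20.4% in imDC and 26.4% in maDC. The commonest miR-142-5p read was thus 20 nt long in DCreg (33.9% of its reads) and 21 nt long in HSC, imDC and maDC (24.8%, 24.5% and 31.9%). For miR-142-3p, of reads with the +1 start, 63.4% in HSC and 53.9% in imDC ended 1 nt before the annotated end, while in maDC 51.7% ended at it.

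miR-223-3p carried added 3′ uridines that the hairpin does not encode. Such U-tailed reads made up 19.6% of miR-223-3p in the HSC library (18.8% to 20.3%), 17.3% in imDC (16.6% to 18.1%), 37.9% in maDC (36.0% to 39.9%) and 31.5% in DCreg (29.2% to 33.9%). The maDC and DCreg libraries were both high and the HSC and imDC libraries both low. Terminal uridylation is known as an untemplated addition by terminal uridylyltransferases. Over all miRNAs with 1000 reads or more, the median share with a U tail was 4.28% in the HSC library, 2.46% in imDC, 4.27% in maDC and 3.17% in DCreg. In maDC the share of miR-223-3p was above that of 69 of the 71 such miRNAs (itself included), and in DCreg above that of 54 of 57. A 23 nt read, the annotated sequence plus U, was the commonest miR-223-3p read in maDC (16.6%) and the second in DCreg (15.9%). In HSC, imDC and DCreg the commonest was a 22 nt read of the +1 form (17.9%, 16.3% and 16.1%). With only reads of the annotated start, the share was 19.2%, 17.9%, 42.3% and 36.6% in the order HSC, imDC, maDC and DCreg.

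**Figure D4:**
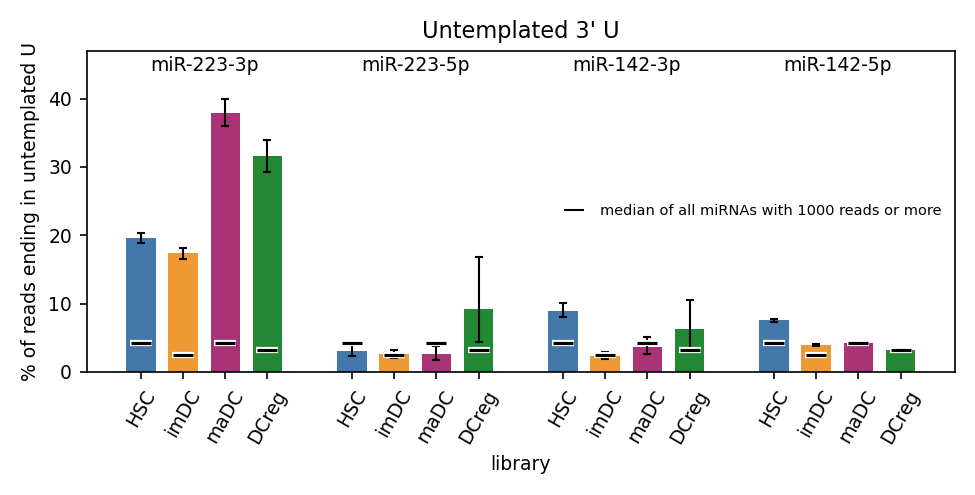
Share of each miRNA's reads that end in untemplated U, by library, with exact 95% intervals. Short dashes mark the median over all miRNAs with 1000 reads or more in that library (2.46% to 4.28%), above which miR-223-3p stands at 17.3% to 37.9%.

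The other 3 miRNAs had U tails nearer those medians. miR-142-5p had 7.58% in the HSC library, 3.92% in imDC, 4.27% in maDC and 3.14% in DCreg, and miR-142-3p 8.97%, 2.36%, 3.71% and 6.28% in the same order. miR-223-5p, from the same hairpin as miR-223-3p, had 3.03%, 2.58%, 2.64% and, on 97 reads, 9.28%. Untemplated A was found on 12.4% of miR-142-3p reads in maDC (10.4% to 14.5%), against 3.15% in HSC, 2.27% in imDC and 6.28% in DCreg (3.39% to 10.5%). The median over all miRNAs was also highest in maDC for A tails, at 8.02%, and 51 of 71 miRNAs had a lower share than miR-142-3p.

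Long reads set the miR-223-5p of maDC apart. A 29 nt form that runs 6 nt past the annotated 3′ end into the loop had 477 copies in maDC, 39 in HSC, 52 in imDC and 1 in DCreg. It is shown with the bases past the annotated end in capitals, since it was the commonest miR-223-5p read of maDC.
miR-223-5p 29 nt: cguguauuugacaagcugaguugGACACU
Reads of 29 nt or more made up 49.1% of miR-223-5p reads in maDC (46.0% to 52.3%), 2.30% in HSC, 1.90% in imDC and 1.03% in DCreg. In maDC they were 484 of the 3160 reads of that length in the whole library (15.3%), whereas all other miRNA arms together had 23 such reads there. In HSC, imDC and DCreg 24 nt was the commonest length of miR-223-5p. The size cut of the gel, per the labels 18 to 30 nt, falls next to this length, and its part in the result was not tested. Without these reads miR-223-5p was 5.85-fold lower in maDC than in imDC (5.30 to 6.47), in place of 2.92-fold in the recount with them. Without them DCreg was 4.25-fold below maDC (3.33 to 5.47), in place of 8.56-fold.

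**Figure D5:**
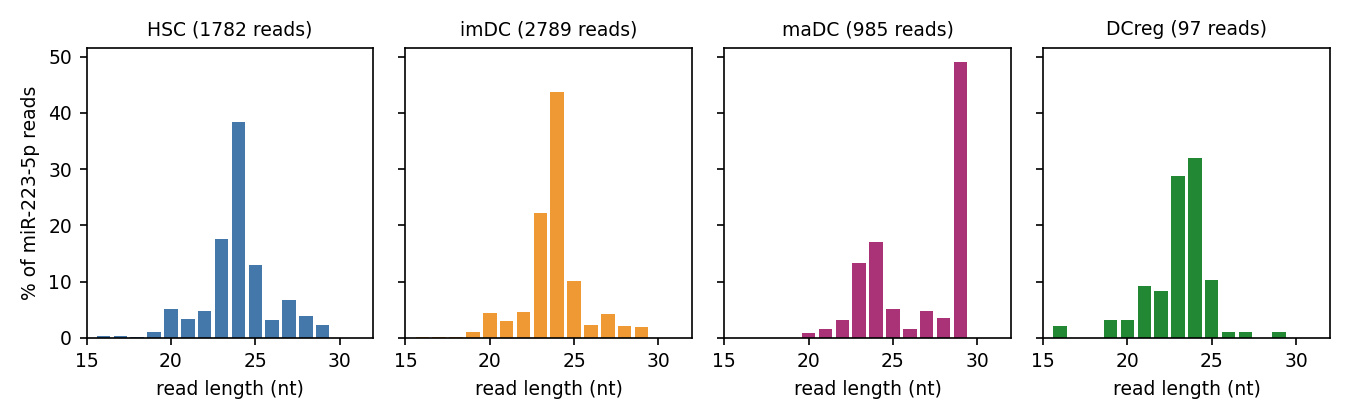
Read lengths of miR-223-5p in nt, as a percentage of its reads, 1 panel per library with the number of reads in each title. The bar at 29 nt holds 49.1% of reads in maDC, while 24 nt is the commonest length in HSC, imDC and DCreg.

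Mismatches were tallied inside the first 18 bases of reads with the commonest start. Reads with 1 mismatch were 5.29% to 10.3% of the total, and the median over all miRNAs with 1000 reads or more was 6.98% to 8.42% per library. A-to-G mismatches, the kind that A-to-I editing leaves, were highest in miR-223-3p in imDC at 0.621% (0.438% to 0.856%), above the median of 0.231% there. In HSC the share of miR-223-3p was 0.180%, below the median of 0.285%, in maDC it was 0.331% (0.108% to 0.771%), and in DCreg none was found (interval to 0.347%). miR-142-5p was above the median in all 4 libraries, at 0.495% in the HSC library, 0.550% in imDC, 0.390% in maDC and 0.375% in DCreg, against 0.285%, 0.231%, 0.207% and 0.214%. These shares are per read and not per A base, so they also depend on how many A bases a miRNA has. In HSC 192 of the 3129 miR-142-5p reads with 1 mismatch were A-to-G, while 972 were C-to-U, the commonest kind. Whether editing took part was not tested. No A-to-G mismatch was found in miR-223-5p of maDC among 1000 reads (here including reads with a mismatch), whose exact interval reaches 0.368%.

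The profiles most like each miRNA were found by the distance between log2 levels centred over the 4 libraries, among 198 miRNAs with 100 ppm or more in at least 1 library. With 4 points each, this describes shape only. For miR-223-3p they were miR-30c-1-3p, miR-181a-1-3p, miR-16-5p, miR-106b-5p and miR-106b-3p. miR-30c-1-3p, at a distance of 0.140, stood at 177 ppm in the HSC library, 122 in imDC, 29.5 in maDC and 33.0 in DCreg. For miR-223-5p they were miR-200c-3p, miR-142-3p, miR-1198-5p, miR-181b-5p and miR-423-3p, and for miR-142-3p they were miR-1198-5p, miR-223-5p, miR-1306-3p, miR-200c-3p and miR-17-5p. The minor strands of the hairpins were thus each other's second nearest profile (distance 0.560). Their own partners were further off: miR-223-3p was the 50th nearest to miR-223-5p (1.93), and miR-142-5p the 88th nearest to miR-142-3p (2.40). The distances use deposited values and were not computed without the miR-223-5p reads of 29 nt or more. The profiles nearest to miR-142-5p were miR-3473c, let-7a-5p, miR-185-5p, miR-122-5p and miR-101a-3p. miR-3473c (distance 0.219) stood at 155, 77.5, 126 and 88.4 ppm in the order HSC, imDC, maDC and DCreg.

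A list of 10 other miRNAs tied to myeloid cells was counted by the same rule. The list was chosen with earlier results of these data known, so its counts beside those of all tested miRNAs are a description and not a test. In imDC against HSC 7 of 10 were called higher and none lower (median log2 1.62, against -0.12 for all tested, of which 26.2% were higher), a step at which none of the 4 was called. miR-155-5p, a regulator of DC activation, stood at 47.6 ppm in the HSC library, 2609 in imDC, 1651 in maDC and 141 in DCreg. In maDC against imDC none was higher and 6 of 10 were lower (median -1.31), where 45% of all tested were lower (median -0.88). miR-27a-3p, from the mir-23a cluster, stood at 1672, 5450, 932 and 1937 ppm in the library order, and miR-146a-5p, a brake on Toll-like receptor signalling, at 1561, 1105, 309 and 1115 ppm. For miR-27a-3p the recount differed, with 10642, 41191, 3775 and 5314 reads, which per placed read put DCreg below HSC. In DCreg against maDC 3 of 9 were higher and 1 lower (median 0.26), where 20.3% of all tested were higher and 28.3% lower (median -0.34). Of DCreg against imDC none was higher and 5 of 10 were lower (median -0.99), a share near the 56% of all tested that were lower (median -1.25). In maDC against HSC 4 of 9 were higher and 2 lower (median 0.80), where 21.7% of all tested were higher and 48.9% lower (median -0.97). In DCreg against HSC 4 of 9 were higher and none lower (median 0.87), against 19.4% higher and 56% lower of all tested (median -1.43). There all 4 of the miR-223 and miR-142 strands were called lower, but miR-142-5p (log2 -1.02) not under every scaling.

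Marker miRNAs of other cell types were set beside these values, and most did not follow any of the 4. The 4 erythroid miRNAs (miR-144-3p, miR-144-5p, miR-451 and miR-486-5p) summed to 15231 ppm in the HSC library, and to 19.4 in imDC, 1.56 in maDC and 2.20 in DCreg. All 4 had a deposited value above 3 in HSC, 3 of 4 had in imDC and none had in maDC or DCreg. miR-144-5p was listed at 0 in maDC and DCreg. The 4 lymphoid miRNAs summed to 13135, 8384, 6183 and 3820 ppm in the order HSC, imDC, maDC and DCreg. miR-181a-5p (6783, 3926, 2253 and 1441 ppm) and miR-181b-5p (3368, 2627, 1831 and 464) were lower in each library of that order than in the one before, as was miR-142-3p. miR-342-3p was not, at 2070.1, 1814, 2098 and 1914 ppm, and miR-150-5p, a marker of mature lymphocytes, was at 914, 17.1, 1.56 and 2.20 ppm. The 6 stromal miRNAs summed to 1090, 61.5, 178 and 259 ppm, with 6, 3, 4 and 5 of the 6 above a deposited value of 3. The 2 endothelial ones summed to 121, 8.00, 2.46 and 1.47 ppm, and both were at 3 or under in DCreg. Their part in the levels of the miR-223 and miR-142 strands was not tested.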

How the data were processed

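Small RNA was read on the Solexa platform in 1 library each of HSC, imDC, maDC and DCreg. Per the labels, RNA was gel purified to 18 to 30 nt, amplified for 12 cycles, filtered of other RNA classes and compared with miRBase release 19. No label or header names the aligner, the build or the normalisation. The authors deposited a table of whole-number scores, called normalised counts per the file headers, which were summed by mature name and scaled to ppm. They also deposited unique sequences with copy numbers (reads). The table's values are normalised, so no count model was fitted. Reads were placed on RefSeq hairpins (Python 3.11.15, numpy 2.4.6, scipy 1.17.1) by exact match from the 5′ end over at least 16 nt, with at most 5 unmatched 3′ bases and the start within 2 nt of the annotated one (4 nt for start profiles). The longest match was taken and ties were split, and placing was checked on simulated reads. RefSeq sequences matched 857 of the 1078 mature names. Shares have exact binomial intervals and ratios exact conditional binomial ones. The 4 miRNAs, the myeloid list and the markers were chosen with earlier results of these data known. All 4 miRNAs are named, with the 5 nearest profiles of each. Alternatives were other scalings, pseudocounts, level minimums and placing rules.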

Additional observations from a re-analysis of the deposited data

How the results depend on the processing

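With 1 library per cell type, no setting replaces a replicate, and depth limits mainly the DCreg reads of miR-223-5p and miR-142-3p. No paired analysis was possible because no group has replicates. No log2 ratio of a called miRNA changed sign under the 10 alternatives tried, of which 2 (recounts with the annotated start only, and with starts within 4 nt) were chosen after seeing the data, as was leaving out long reads. The number of called miRNAs moved by over 1.5 times in 3 cases: 1 in imDC against HSC with median-of-ratios scaling (miR-142-5p, log2 -1.08), 1 in DCreg against maDC when reads of the annotated start only were counted (miR-142-3p then lay under 100 ppm in both libraries), and 1 in maDC against HSC with trimmed-mean scaling. The 5p share of mir-223 with annotated starts only was 21.8% in the HSC library, 31.2% in imDC, 39.2% in maDC and 6.93% in DCreg. With no unmatched 3′ base, which drops the U-tailed miR-223-3p reads, it was 16%, 26.1%, 43.6% and 6.03%, and by deposited values 17.0%, 25.9%, 34.1% and 7.97%. With starts within 4 nt it was 14.1% in HSC and 22.8% in imDC. Without reads of 29 nt or more it was 16.6% in maDC, below imDC. The 5p share of mir-142 with annotated starts only was 95.4% in the HSC library, 90.9% in imDC, 99.1% in maDC and 99.6% in DCreg. By deposited values it was 94.4% in HSC, 91.7% in imDC and 97.3% in maDC, with no unmatched 3′ base 91.8% in imDC and 97.8% in maDC, and with starts within 4 nt 92.6% in imDC. The order of the 4 libraries in the mir-142 share was the same under each of these. The causes were not tested.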
